A study of Rattus norvegicus with 6 samples.

Results

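The levels of 10 genes of the rat kidney inner medulla that differed between arrays of the same treatment were examined: Mest, Car15, Guca2a, Guca2b, Ptprn, Pappa, Gpnmb, Spink13, Alox15b and Mt3. They are 10 of 14168 genes that had a probe set with a symbol of their own, and each of the 10 had 1 such probe set. They were chosen for their values in these same arrays, because vehicle replicate 1 and dDAVP replicate 2, arrays of different treatments, stood on one side and the other 4 arrays on the other. That difference is therefore described here without a test.

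The tissue came from male Sprague-Dawley rats of 200 to 250 g and was hybridised to 6 whole-transcript arrays, 2 in each of 3 groups. In the withdrawal group a minipump under the skin delivered 40 ng/h of dDAVP for 5 d and was then taken out under light enflurane anaesthesia, 3 h before the end. The dDAVP group (desmopressin, an agonist of the vasopressin V2 receptor) received the same 40 ng/h for 5 d, and the removal of a pump is described for the withdrawal group alone. In the vehicle group the pump held saline, given at 1 µl/h for 5 d, and all rats had a fixed ration of food and free access to water. Nothing in the labels states that both arrays of a treatment came from separate animals, so the p-values below measure the spread between these arrays, which may be technical.

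The deposited intensities, summarised by the authors with RMA, ran from 30.2 to 10778.7 and are given here as log2 values. The median gene lay between 7.83 and 8.0 in the 6 arrays, lowest in dDAVP replicate 1. Aqp2, the water channel that defines collecting duct principal cells, lay between 13.14 and 13.40 in all 6, and Slc14a2, the urea transporter of the inner medullary collecting duct, between 11.79 and 12.55. The height of each signal over the array background is not known here, and 2 arrays a group limit the precision of every value.

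The 10 genes come from several families and pathways. Guanylin (Guca2a) and uroguanylin (Guca2b) are small secreted peptides that activate the receptor guanylate cyclase C and raise cGMP, and they link salt intake to salt handling in the intestine and the kidney. Pappa is a secreted metalloprotease that releases insulin-like growth factors from a binding protein, and Mest is an imprinted gene expressed from the paternal allele in fetal and growing tissue. Carbonic anhydrases such as Car15 interconvert carbon dioxide and bicarbonate, and metallothioneins such as Mt3 bind zinc and copper.

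Start-site windows are shown for the 2 genes with the largest difference (Mest and Car15), the adjoining pair Guca2a and Guca2b, the gene with the largest difference in the other direction (Spink13), and Mt3. Each runs from 250 bases before to 50 bases after the RefSeq gene start in build GRCr8. RefSeq windows of this kind were found for 8 of the 10 genes. Capitals mark matches, on either strand, to 6 short motifs. The motif TATAAA is the box bound by the TATA-binding protein at many start sites. The motif CCAAT is bound by the factor NF-Y, and the box written GGGCGG is bound by Sp1 and its relatives. The letters GTTAAT are the half-site of the HNF1 factors of kidney and liver. The element TGANTCA is that of the AP-1 factors. The last one, TGCNCNC, is a loose form of the core of the metal response element of metallothionein genes. It also takes in sequences outside that core, so a match need not be such an element. The sequences read 5′ to 3′ on the strand of the gene.
Mest, chr4:60321564-60321863, plus strand: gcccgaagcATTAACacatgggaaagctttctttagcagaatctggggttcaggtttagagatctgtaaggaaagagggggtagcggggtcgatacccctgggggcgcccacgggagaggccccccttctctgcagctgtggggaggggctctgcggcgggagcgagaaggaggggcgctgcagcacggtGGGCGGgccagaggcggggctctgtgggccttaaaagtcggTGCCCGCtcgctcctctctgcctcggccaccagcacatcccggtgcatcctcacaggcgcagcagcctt
Car15, chr11:96651189-96651488, plus strand: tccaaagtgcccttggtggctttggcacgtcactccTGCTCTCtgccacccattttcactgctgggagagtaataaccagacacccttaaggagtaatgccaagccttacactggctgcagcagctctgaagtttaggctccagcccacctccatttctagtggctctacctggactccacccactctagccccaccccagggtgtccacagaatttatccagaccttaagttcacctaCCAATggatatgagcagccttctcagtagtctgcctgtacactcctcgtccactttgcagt
Guca2a, chr5:138522196-138522495, plus strand: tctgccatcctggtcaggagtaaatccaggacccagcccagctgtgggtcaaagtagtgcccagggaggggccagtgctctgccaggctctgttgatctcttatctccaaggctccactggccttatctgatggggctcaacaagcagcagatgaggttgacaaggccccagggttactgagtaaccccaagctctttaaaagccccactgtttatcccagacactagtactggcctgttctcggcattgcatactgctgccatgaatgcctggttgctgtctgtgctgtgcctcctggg
Guca2b, chr5:138534161-138534460, minus strand: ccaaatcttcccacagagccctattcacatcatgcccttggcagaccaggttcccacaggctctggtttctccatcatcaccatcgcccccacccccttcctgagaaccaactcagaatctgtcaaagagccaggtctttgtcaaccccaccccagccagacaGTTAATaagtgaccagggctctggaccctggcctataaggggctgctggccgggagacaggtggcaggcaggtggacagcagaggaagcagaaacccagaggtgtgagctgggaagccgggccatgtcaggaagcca
Spink13, chr18:58476520-58476819, minus strand: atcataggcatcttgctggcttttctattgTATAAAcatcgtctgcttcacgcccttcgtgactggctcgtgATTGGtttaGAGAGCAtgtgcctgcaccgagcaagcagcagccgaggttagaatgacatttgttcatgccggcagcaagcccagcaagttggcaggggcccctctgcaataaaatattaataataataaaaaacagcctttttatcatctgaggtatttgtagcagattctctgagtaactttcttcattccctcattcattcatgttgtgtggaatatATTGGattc
Mt3, chr19:10856031-10856330, minus strand: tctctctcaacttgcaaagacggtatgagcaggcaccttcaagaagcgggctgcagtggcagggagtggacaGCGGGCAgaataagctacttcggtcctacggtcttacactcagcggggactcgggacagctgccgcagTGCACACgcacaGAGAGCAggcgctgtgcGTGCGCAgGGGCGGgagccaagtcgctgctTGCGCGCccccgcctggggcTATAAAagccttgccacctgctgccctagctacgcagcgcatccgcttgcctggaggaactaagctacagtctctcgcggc

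The 6 windows shared no motif that all of them held. Guca2b had 1 match to GTTAAT and Guca2a had none, and 7.45% of 33469 windows of the same length held this motif. Mest also had 1 match to GTTAAT, 1 to GGGCGG (33.1% of windows) and 1 to TGCNCNC (49.6% of windows). Mt3 had 5 matches to TGCNCNC, and 0.669% of windows held 5 or more of this motif. It also had 1 TATAAA and 1 GGGCGG. Car15 had 1 CCAAT (37.5% of windows) and 1 TGCNCNC. Spink13 had 2 CCAAT, 1 TATAAA (14.2% of windows) and 1 TGCNCNC. The TATAAA lay at -220 from the gene start in Spink13 and at -31 in Mt3. The CCAAT matches of Spink13 lay at -178 and 41. TGANTCA, held by 7.33% of windows, was matched in none of the 6 windows shown and once in that of Gpnmb. The window of Mest held 18 CG dinucleotides and that of Mt3 22, against 1 in Guca2a, 3 in Guca2b, 2 in Car15 and a median of 7.0 over all windows.

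Of the 10 genes, 7 were lower in vehicle replicate 1 and dDAVP replicate 2 than in each of the other 4 arrays, and 3 were higher than in each of them. Over all 14168 genes these 2 arrays lay below the other 4 in 12.7% and above them in 10.9%, and by more than 1 log2 in 0.226% and 0.0565%. The genes were chosen on this difference, so the shares are given as background only.

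**Figure D1:**
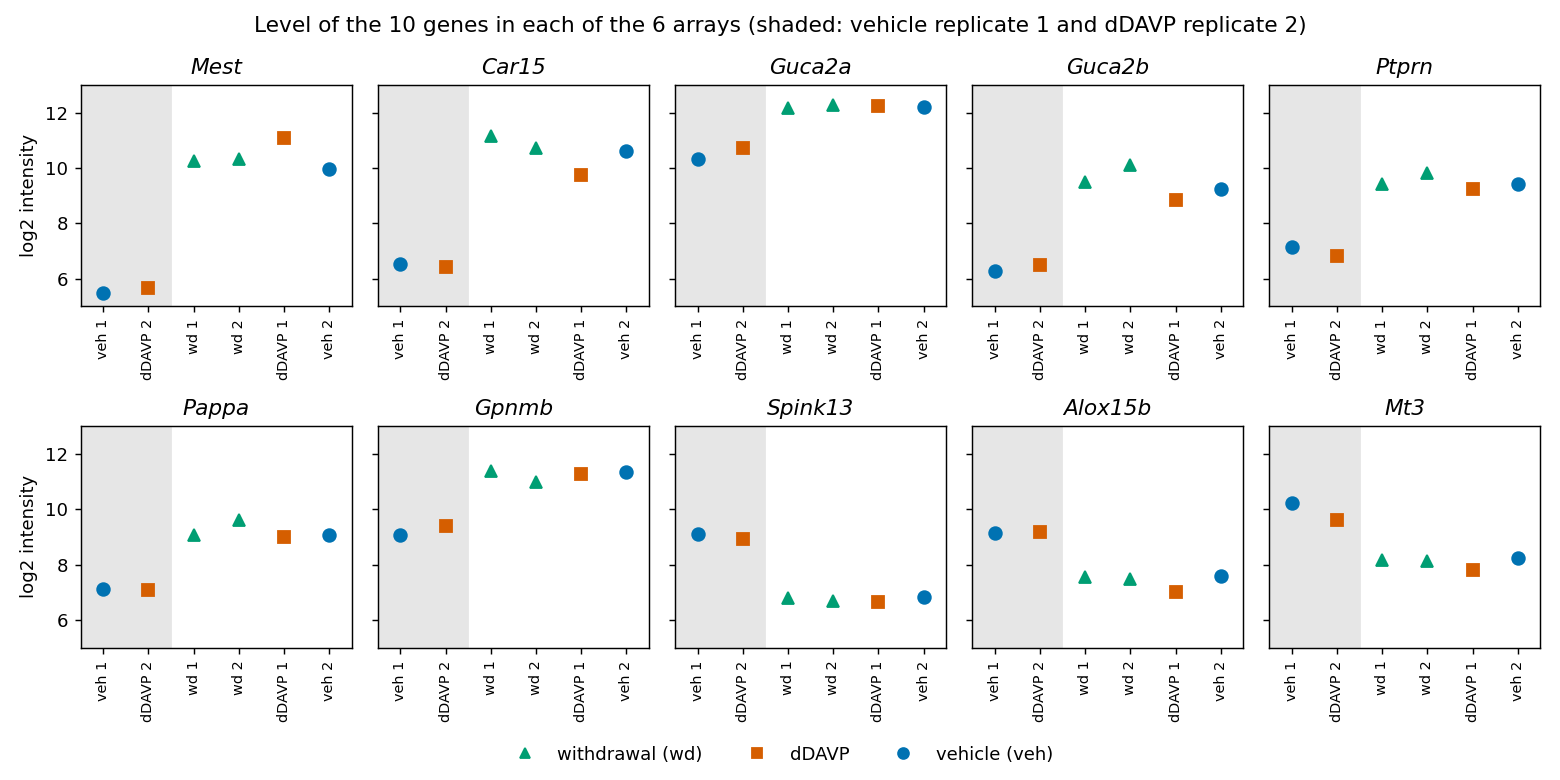
Log2 intensity of each gene in each array, 1 point per array, with vehicle replicate 1 and dDAVP replicate 2 on the shaded ground and the 2 withdrawal arrays, dDAVP replicate 1 and vehicle replicate 2 to their right. Mest lies at 5.47 and 5.66 on the shaded ground and at 9.97 to 11.10 in the other 4 arrays, and Spink13, Alox15b and Mt3 show the opposite order.

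Mest, the imprinted gene, stood furthest apart. Its log2 intensity was 5.47 in vehicle replicate 1 and 5.66 in dDAVP replicate 2, against 10.26 and 10.34 in the withdrawal arrays, 11.10 in dDAVP replicate 1 and 9.97 in vehicle replicate 2. The gap between the nearest arrays of the 2 sets was -4.31 log2 (19.9-fold), while the 2 low arrays differed by 0.19 and the other 4 spanned 1.13. The difference of means was -4.85 log2, or 28.9-fold. The level of Mest was thus close in 2 arrays of different treatments and far apart in the 2 arrays of each of those treatments.

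Among the secreted peptides, Guca2b differed more than its neighbour Guca2a. Guca2b was at 6.28 in vehicle replicate 1 and 6.49 in dDAVP replicate 2, against 9.49 and 10.10 in the withdrawal arrays, 8.84 in dDAVP replicate 1 and 9.23 in vehicle replicate 2. The difference of means was -3.03 log2 (8.15-fold). Guca2a was at 10.31 and 10.72 in the same 2 arrays, against 12.18 and 12.26 in the withdrawal arrays, 12.23 in dDAVP replicate 1 and 12.21 in vehicle replicate 2. Its 4 higher arrays lay within 0.08 log2 of each other, the smallest such span among the 10 genes, and its difference of means was -1.70 log2 (3.26-fold). The receptor of both peptides, Gucy2c, lay between 6.19 and 6.57 in all 6 arrays, with the 2 sets overlapping. This is near the level of Guca2b in its 2 low arrays, and whether Gucy2c was expressed is not known here.

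Among the enzymes, Car15, a carbonic anhydrase anchored to the outer cell membrane, was at 6.55 in vehicle replicate 1 and 6.43 in dDAVP replicate 2. It was at 11.15 and 10.73 in the withdrawal arrays, 9.75 in dDAVP replicate 1 and 10.62 in vehicle replicate 2. This is a difference of means of -4.08 log2 (16.9-fold), and the span of 1.40 log2 among its 4 higher arrays was the widest of the 10 genes. Pappa, the protease of insulin-like growth factor binding proteins, was at 7.10 and 7.09 in the 2 low arrays, against 9.06 and 9.60 in the withdrawal arrays, 8.98 in dDAVP replicate 1 and 9.06 in vehicle replicate 2 (-2.08 log2, 4.22-fold). The 2 low arrays of Pappa were 0.01 log2 apart.

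The membrane proteins followed the same order. Ptprn (IA-2), a catalytically inactive phosphatase-like protein of dense core vesicles, was at 7.13 in vehicle replicate 1 and 6.83 in dDAVP replicate 2, against 9.43 and 9.82 in the withdrawal arrays, 9.24 in dDAVP replicate 1 and 9.43 in vehicle replicate 2 (-2.50 log2, 5.66-fold). Gpnmb, a glycoprotein of lysosome-related organelles and phagocytes, was at 9.07 and 9.41, against 11.39 and 10.99 in the withdrawal arrays, 11.25 in dDAVP replicate 1 and 11.34 in vehicle replicate 2 (-2.004 log2, 4.01-fold). In both genes the 2 sets of arrays did not overlap and each set spanned at most 0.59 log2.

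The other 3 genes had the opposite order. Spink13, a Kazal-type serine protease inhibitor, was at 9.11 in vehicle replicate 1 and 8.93 in dDAVP replicate 2, against 6.79 and 6.69 in the withdrawal arrays, 6.63 in dDAVP replicate 1 and 6.83 in vehicle replicate 2 (2.29 log2, 4.89-fold). Alox15b, a lipoxygenase that oxygenates arachidonic acid, was at 9.13 and 9.19, against 7.55 and 7.48 in the withdrawal arrays, 6.997 in dDAVP replicate 1 and 7.59 in vehicle replicate 2 (1.75 log2, 3.37-fold). Mt3, a metallothionein first described in brain, was at 10.22 and 9.61, against 8.16 and 8.13 in the withdrawal arrays, 7.80 in dDAVP replicate 1 and 8.23 in vehicle replicate 2 (1.84 log2, 3.57-fold). In each of the 3 genes dDAVP replicate 1 was the lowest of the 6 arrays, and it was also the array with the lowest median gene. Mt3 was the member whose 2 apart arrays differed most from each other, by 0.60 log2.

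The comparison of treatments asked whether the infusion or its withdrawal moved these genes. None of the 10 reached an adjusted p of 0.05 in a treatment comparison (limma with Benjamini-Hochberg adjustment over all genes), and over all genes 0% did. Without adjustment, p was under 0.05 for 1052 genes in dDAVP against vehicle, 2686 in withdrawal against dDAVP and 253 in withdrawal against vehicle, none of them among the 10. These counts depended on the scaling, with 460, 922 and 298 under cyclic loess and 495, 1266 and 264 with array medians subtracted. They also moved when 1 array was left out, to between 379 and 1626, between 773 and 2919, and between 117 and 665. The moderated F-test over the 3 groups gave the 10 genes adjusted p-values from 0.504 (Guca2b) to 0.745 (Alox15b). The treatment groups held between 17.2% (Alox15b) and 44.4% (Guca2b) of each gene's sum of squares over the 6 arrays, against 52.1% in the median gene, a share that the choice of genes with unlike replicates lowers. The choice also widens the spread that limma sets each difference against.

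In dDAVP against vehicle each group holds 1 of the 2 arrays that stand apart, so the difference of means does not contain the shift between the 2 sets of arrays. Mest averaged 8.38 ± 3.85 in dDAVP and 7.72 ± 3.18 in vehicle (SD, n = 2), a difference of 0.66 log2 with a 95% interval from -4.21 to 5.53 (adjusted p = 0.891, limma). Car15 averaged 8.09 ± 2.35 in dDAVP and 8.58 ± 2.88 in vehicle (-0.50, interval -4.13 to 3.14, limma adjusted p = 0.890). The narrowest interval was that of Guca2a, which differed by 0.22 (-1.46 to 1.90). Changes of more than 2-fold in either direction therefore lay inside the interval of every one of the 10 genes. The arrays of the 2 groups overlapped in all 10 genes, which their choice fixes, whereas they did not overlap in 45.4% of all genes (higher in dDAVP in 4.8% and lower in 40.6%). That tilt went with an offset of the arrays: the median gene differed by -0.11 log2, and with array medians subtracted 16.4% were higher and 12.4% lower (15.2% and 14.8% under loess).

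Each of these differences is the mean of the dDAVP minus vehicle difference inside the 2 apart arrays and that inside dDAVP replicate 1 and vehicle replicate 2. For Mest these were 0.19 and 1.13 log2, and for Car15 -0.12 and -0.87. Mt3 gave -0.60 and -0.43, Spink13 -0.18 and -0.20, Ptprn -0.30 and -0.19, Pappa -0.01 and -0.08, and Guca2a 0.41 and 0.03. The 2 differences had opposite signs in Guca2b (0.21 and -0.39), Gpnmb (0.34 and -0.09) and Alox15b (0.06 and -0.60). Both were negative in 5 of the 10 genes and both positive in 2, against 58.9% and 12% of all genes. With array medians subtracted 4 genes were negative and 4 positive in both, against 23.7% and 30.7% of all genes (4 and 3 genes under loess, against 28.1% and 28.7%). Leaving out 1 array turned the sign of the difference in all 10 genes: Mest differed by -1.59 without vehicle replicate 1 and by -2.06 without dDAVP replicate 1, but by 2.91 without vehicle replicate 2 and by 3.38 without dDAVP replicate 2.

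**Figure D2:**
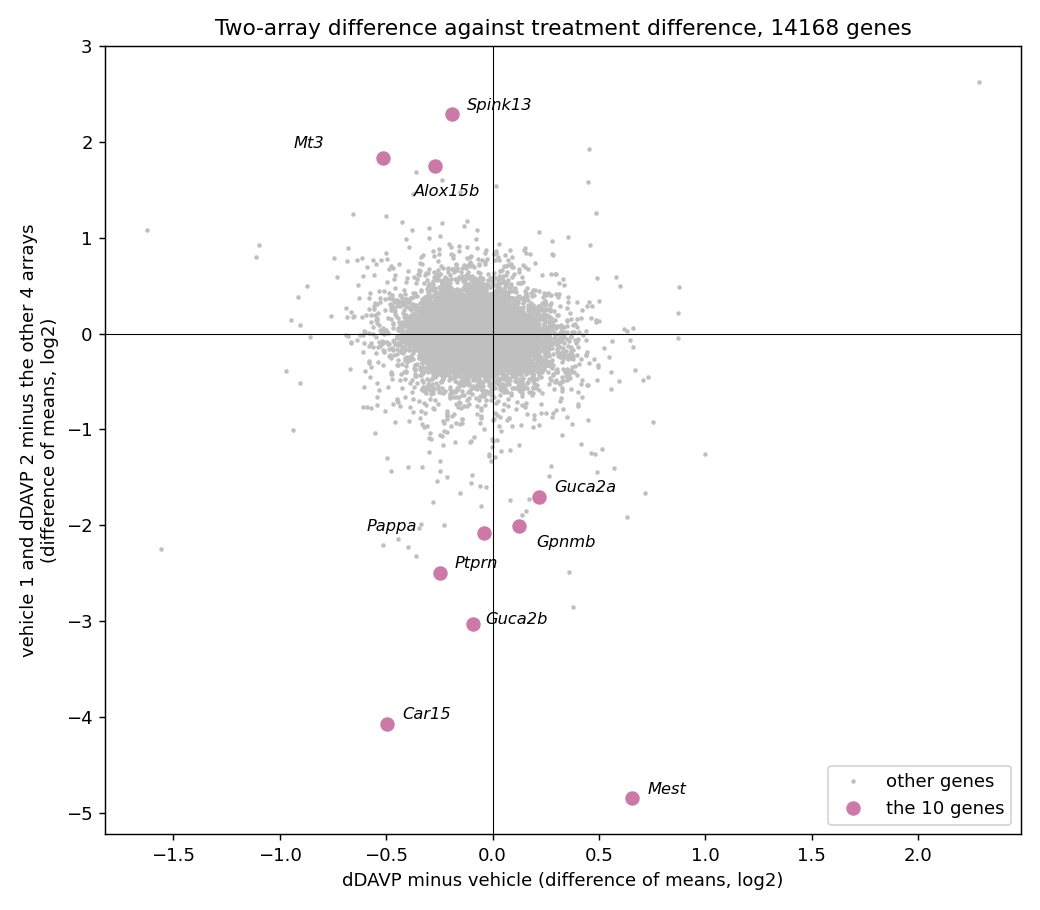
Each gene's dDAVP minus vehicle difference of means (x axis, log2) against the difference of means between vehicle replicate 1 with dDAVP replicate 2 and the other 4 arrays (y axis, log2), for 14168 genes, with the 10 genes as large labelled points. Mest lies at 0.66 on the x axis and -4.85 on the y axis, and Spink13 at -0.19 and 2.29.

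The withdrawal group holds neither of the 2 apart arrays, so the direction of its differences follows from how the genes were chosen, and both comparisons that hold it share its 2 arrays. Car15 averaged 10.94 ± 0.29 in withdrawal, 8.09 ± 2.35 in dDAVP and 8.58 ± 2.88 in vehicle (SD, n = 2). Its differences were 2.85 against dDAVP (interval -0.79 to 6.49) and 2.36 against vehicle (-1.28 to 5.995). Guca2b averaged 9.79 ± 0.43 in withdrawal, 7.66 ± 1.66 in dDAVP and 7.76 ± 2.08 in vehicle, with differences of 2.13 (-0.51 to 4.77) and 2.04 (-0.60 to 4.67).

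Against dDAVP the withdrawal arrays lay above both dDAVP arrays in 4 of the 10 genes (Car15, Guca2b, Ptprn and Pappa), beside 49.6% of all genes. They lay below both in none, beside 8.06% of all genes (57.6% in either direction). With array medians subtracted these counts were 3 above and 1 below, beside 27.7% and 19.5% of all genes, and under loess 3 and 1, beside 20.3% and 19.1%. Against vehicle they lay above in 5 (the same 4 and Mest), beside 17.6% of all genes. They lay below in 3 (Spink13, Alox15b and Mt3), beside 13.1% of all genes (30.7% in either direction). With array medians subtracted 5 lay above and 3 below, beside 15.6% and 13.5% of all genes. Under loess 6 lay above and 3 below, beside 16.1% and 16%. Without vehicle replicate 1 and dDAVP replicate 2, dDAVP replicate 1 alone stands for its group. The difference of withdrawal against dDAVP was then -0.80 for Mest, 0.52 for Alox15b and 0.35 for Mt3. Each was of the opposite sign to that over all arrays (1.92, -0.57 and -0.56), and Guca2a, Gpnmb and Spink13 turned as well. The sign was kept in Car15 (1.19), Guca2b (0.96), Ptprn (0.39) and Pappa (0.35).

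**Figure D3:**
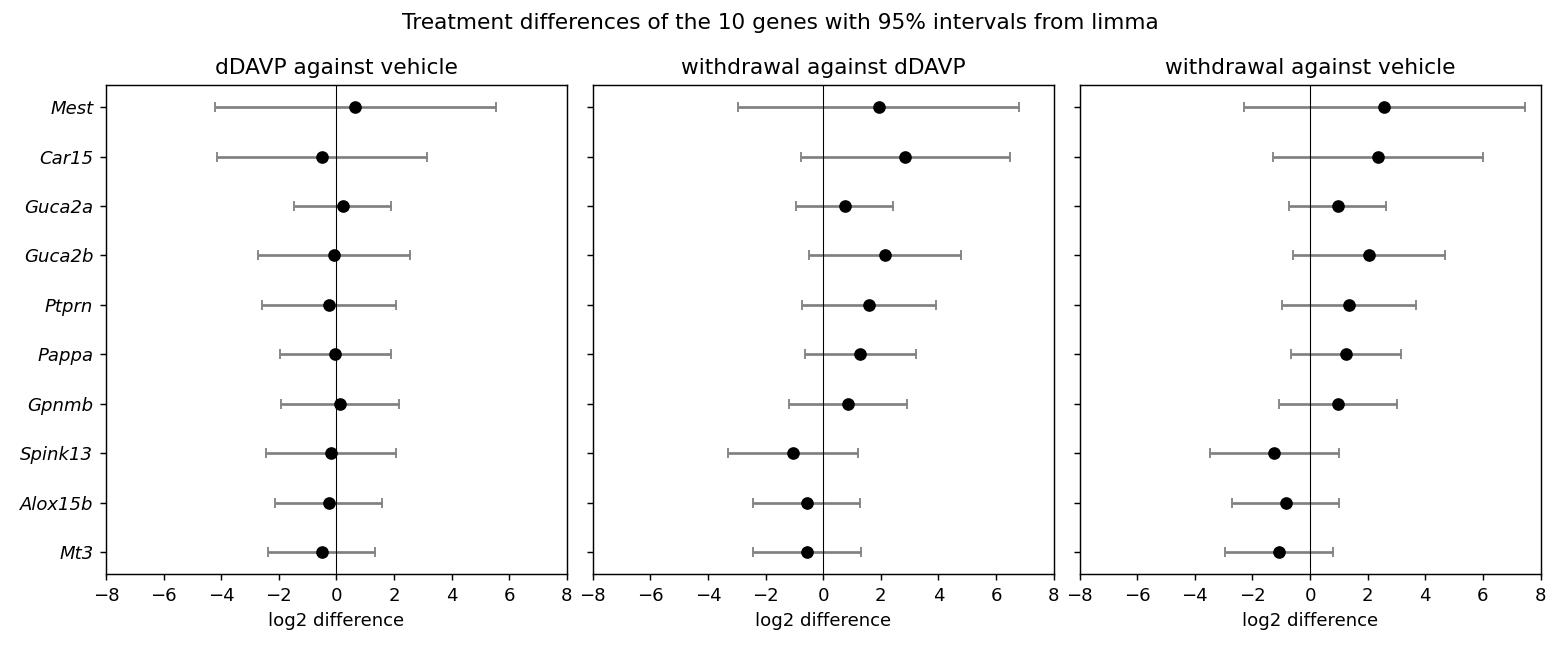
Log2 differences of the 10 genes (rows) in the 3 comparisons (panels), with points for the difference of means and bars for 95% intervals from limma over all 6 arrays. All intervals cross 0, from the narrow one of Guca2a (-1.46 to 1.90 in dDAVP against vehicle) to that of Mest (-4.21 to 5.53).

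Relatives of the 10 genes mostly did not share their pattern. Because the 10 were chosen for a large difference, a smaller one in their relatives says little. Some relatives were also dim in all arrays, such as Car14 (6.17 to 6.41), and a fall there may not show. Among imprinted genes, 0 of the 17 other measured members lay below the other 4 arrays in both apart arrays and 4 lay above (12.7% and 10.9% of all genes did), and their differences of means ran from -0.31 to 0.45 log2, beside -4.85 for Mest. Igf2 differed by -0.01 and H19 by 0.02, both imprinted genes of fetal growth. The 13 other carbonic anhydrases ran from -0.41 to 0.11, beside -4.08 for Car15, and Car2, the cytosolic form, differed by 0.07. The 5 other Kazal inhibitors ran from -0.08 to 0.48 and the 9 other lipoxygenases and leukotriene enzymes from -0.09 to 0.37, beside 2.29 for Spink13 and 1.75 for Alox15b.

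The metallothioneins split. Mt1, an inducible metallothionein, was at 11.94 in vehicle replicate 1 and 11.75 in dDAVP replicate 2, against 12.45 and 12.78 in the withdrawal arrays, 12.09 in dDAVP replicate 1 and 12.47 in vehicle replicate 2. It was thus lowest in the 2 arrays in which Mt3 was highest, with a difference of means of -0.60 log2 beside 1.84 for Mt3. Mt2A differed by -0.20 in the same direction as Mt1, and Mt4 by -0.17 with overlapping sets. Metallothionein genes resemble each other, and whether their probe sets share signal is not known here.

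In the insulin-like growth factor axis 2 of the 13 other measured genes lay below in both apart arrays (Igfbp1 and the receptor Igf2r). Above lay 1 (Igfbp2). Of all genes 12.7% lay below and 10.9% above, shares near these counts. Igfbp1, a binding protein, was at 7.50 and 8.18, against 10.28 and 9.62 in the withdrawal arrays, 9.24 in dDAVP replicate 1 and 9.61 in vehicle replicate 2 (-1.85 log2). Igfbp2 had the opposite order, at 9.88 and 10.01 against 8.75 to 9.12 in the other 4 (1.06 log2). Igf2r differed by -0.29. Igfbp4, the main substrate of Pappa, differed by -0.03 and Igf1 by 0.26, both with overlapping sets. The 12 other dense core vesicle genes ran from -0.46 to 0.16, beside -2.50 for Ptprn. Of the 12 other genes listed with Gpnmb, 4 lay below and 2 above (12.7% and 10.9% of all genes), with a median difference of -0.11. The gene furthest apart was Ctsd (cathepsin D), at 11.75 and 11.72 against 12.42 to 12.66 in the other 4 arrays (-0.85 log2). No member of these 9 lists passed in any treatment comparison (0% of all genes did).

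**Figure D4:**
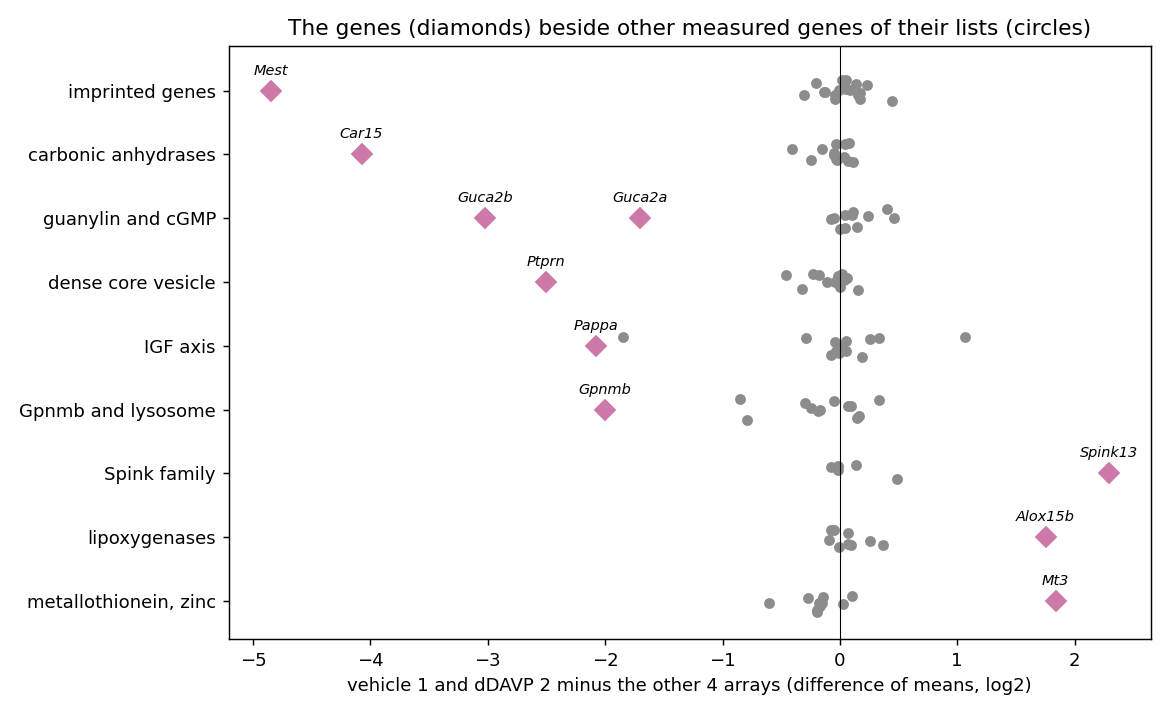
Difference of means between vehicle replicate 1 with dDAVP replicate 2 and the other 4 arrays (x axis, log2) for the measured genes of 9 lists (rows), with the 10 genes as diamonds and the other members as circles, spread vertically for legibility. Most circles lie near 0, with Igfbp1 at -1.85 beside Pappa at -2.08.

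Genes next to the 10 in the genome (RefSeq order of protein-coding genes, GRCr8) are set beside all genes. The 10 themselves were chosen for a large difference, so a smaller one in their neighbours says little. Guca2a and Guca2b adjoin each other and are both among the 10. Of 12 other measured neighbours, 3 lay below the other 4 arrays in both apart arrays and 0 above (12.7% and 10.9% of all genes). Their differences of means ran from -0.32 to 0.15 log2, with no gap past 1 log2. The median absolute difference over all genes was 0.09 log2. Cep41, beside Mest, differed by 0.07, Dgcr2, beside Car15, by -0.07, and Alox12b, beside Alox15b, by -0.01. Resp18, a secretory granule gene beside Ptprn, had the largest of these differences (-0.32).

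The 7 lower genes correlated with each other over the 6 arrays with Pearson's r from 0.934 to 0.995 and the 3 higher genes with r from 0.974 to 0.983. These values come from 6 arrays that fall into 2 sets and from genes chosen for that split, so they are a description. Among 480 genes that spanned at least 1 log2, those most like Mest were the chemokines Ccl2 (r = 0.999) and Ccl7 (0.993). Ccl2 was at 11.37 and 11.39 in the 2 low arrays, against 12.48 and 12.57 in the withdrawal arrays, 12.68 in dDAVP replicate 1 and 12.44 in vehicle replicate 2. Car15 was most like the mitotic kinase gene Cdk1 (0.997) and Pttg1 (0.995), which encodes securin.

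Guca2a was most like the ectonucleotidase Entpd2 (0.992) and Ccl7 (0.989), and Guca2b most like the growth factor Hbegf (0.995) and Pappa (0.993). Ptprn was nearest to Bbln (0.998) and Pappa (0.995), and Pappa to Raph1 and the lactate transporter Slc16a1 (0.997 and 0.995). Gpnmb was nearest to the lysosomal channel Mcoln3 (0.995) and the pantetheinase Vnn1 (0.994). Spink13 was nearest to Tmem35a (0.996) and C1qtnf3 (0.991), Alox15b to Clec12b (0.997) and the aldolase Aldoc (0.995), and Mt3 to Tmem35a (0.991) and Aldoc (0.989).

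The 10 genes were not alone in this pattern: in 40 genes (0.282% of all) the 2 arrays lay more than 1 log2 from all of the other 4, 32 below and 8 above. Outside the 10, the largest gaps below were those of Ccl7 (-2.43 log2, 8.29 and 8.55 against 10.98 to 11.53), the phosphatase Cdkn3, the mitotic kinase Pbk, Cdk1 and the topoisomerase Top2a. Those above were the neuropeptide Nmu (1.32 log2, 8.68 and 8.92 against 7.16 to 7.36), C1qtnf3, the alpha globin Hba-a3, the monocarboxylate transporter family gene Slc16a4 and the sulfotransferase Sult1a1.

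Markers of other processes and cells moved with the 10 genes, and their part in the result was not tested. Of 29 measured DNA replication and mitosis genes 24 lay below the other 4 arrays in both apart arrays and 0 above (12.7% and 10.9% of all genes), with a median difference of -0.82 log2. Of 14 immediate early genes 11 lay below, among them Myc (7.46 and 7.44 against 8.36 to 9.02) and Atf3 (8.13 and 8.01 against 8.88 to 9.11), and 0 above. Of 11 genes of injured tubules 9 lay below, among them Lcn2 (8.81 and 8.34 against 9.76 to 10.95), and 1 above.

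Of all genes 12.7% lay below and 10.9% above, to be set beside each count that follows. All 4 measured red blood cell genes lay above. Their summed level was 13.003 and 12.96 in the 2 arrays, against 12.05 to 12.25 in the other 4. Endothelial markers lay above in 4 of 7 (3 after array medians were subtracted, 5 under loess), with a median difference of 0.17 log2. The largest difference was that of Tie1 (9.89 and 9.89 against 8.98 to 9.22), while Plvap, Flt1 and Cdh5 had overlapping sets. Summed levels of the endothelial markers were 13.08 and 13.18 against 12.75 to 13.01. Proximal tubule markers lay above in 3 of 11, with a median difference of 0.10 log2 and summed levels of 11.66 and 11.66 against 10.96 to 11.36. Without the amino acid transporter Slc7a13 the sums were 10.63 and 10.57 against 10.32 to 10.54. Collecting duct markers lay below in 4 of 10 and above in 0 (2 and 1 after array medians were subtracted), with overlapping summed levels of 15.05 and 15.11 against 15.08 to 15.26. Immune cell markers lay below in 4 of 11 and above in 0 (4 and 2 after array medians were subtracted), with a median difference of -0.04 log2 and summed levels of 12.47 and 12.21 against 12.59 to 12.90. In these whole-tissue samples fewer cells of a type and less RNA per cell cannot be told apart.

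**Figure D5:**
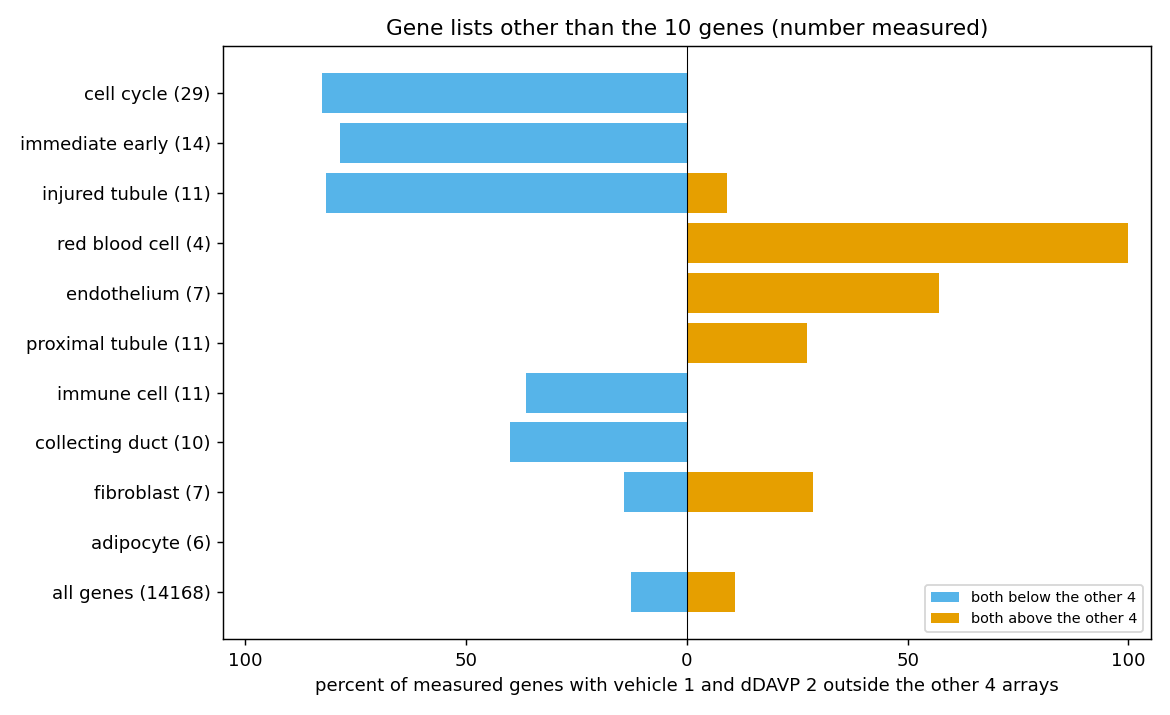
Percent of the measured genes of each list (rows, number measured in brackets) in which vehicle replicate 1 and dDAVP replicate 2 both lay below (bars to the left) or both above (bars to the right) the other 4 arrays. Cell cycle genes lie below in 24 of 29 and red blood cell genes above in 4 of 4, beside 12.7% and 10.9% of all genes in the bottom row.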

How the data were processed

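Total RNA (300 ng per array) of 6 samples was labelled by a whole-transcript sense target method, per the labels' protocols. The deposited file holds 1 linear intensity per probe set and array, for which the submitters' processing notes name RMA. Neither its version nor a genome build is given in the sources used here. RMA equalises arrays, so shifts common to most genes are reduced. The log2 of each deposited intensity was taken here.

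Of 28524 probe sets, 14947 had 1 gene symbol in the platform annotation, 318 had several and 13259 were not listed there. The brightest probe set stood for each of 14168 genes, and 14916 probe sets matched RefSeq gene numbers (GRCr8, names and gene order only). No filter was applied. limma 3.58.1 in R 4.3.3 fitted 1 mean per group to all 6 arrays (3 residual and 3.21 prior degrees of freedom), two-sided, and was tested on simulated data. Scan dates were not used here, so batches were not looked for.

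The 10 genes and the 26 gene lists (12 of function, 14 of cell type markers) were chosen with earlier results of these data known. Beside the 10, named genes were the 5 with the largest gap in each direction, the 2 most correlated with each gene, genome neighbours, family members, and up to 4 of each other list. Unnamed loci (LOC, RGD), olfactory and vomeronasal receptors and microRNAs were left out of the rankings by gap and by correlation. Aqp2 (to check the tissue) and Cd3g fall outside this rule and were chosen after their values were seen. Alternatives were cyclic loess, median subtraction, leaving out the dimmest genes (below the 0.25 quantile), averaging probe sets, leaving out arrays, and a block for the replicate number.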

Additional observations from a re-analysis of the deposited data

How the results depend on the processing

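The gap between vehicle replicate 1 with dDAVP replicate 2 and the other 4 arrays kept its direction in all 10 genes under cyclic loess, with array medians subtracted and with the mean of all probe sets, and Mest ranged from -4.31 to -4.22 log2. Genes past 1 log2 numbered 40, 46 under loess and 45 with medians subtracted. No treatment comparison had a gene past an adjusted p of 0.05 under either scaling, without the dimmest genes or without both apart arrays (limma). Leaving out 1 array gave 0 to 2 genes in dDAVP against vehicle, in withdrawal against dDAVP and in the F-test, the 2 without dDAVP replicate 1. There the group left with 1 array is assumed to vary like the others.

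The treatment differences of the 10 genes were less stable. In dDAVP against vehicle, Guca2b was 0.024 with medians subtracted, Pappa was 0.036 under loess and 0.076 with medians subtracted, and Gpnmb was -0.09 without both apart arrays. Without both, withdrawal against dDAVP was -0.80 for Mest, -0.0095 for Guca2a, -0.067 for Gpnmb, 0.11 for Spink13, 0.52 for Alox15b and 0.35 for Mt3, and withdrawal against vehicle was -0.16 for Gpnmb. Leaving out 1 array in dDAVP against vehicle gave -2.06 to 3.38 for Mest, -2.53 to 1.54 for Car15, -0.73 to 1.16 for Guca2a, -1.57 to 1.38 for Guca2b, -1.45 to 0.96 for Ptprn, -1.02 to 0.94 for Pappa, -1.01 to 1.26 for Gpnmb, -1.34 to 0.96 for Spink13, -1.36 to 0.83 for Alox15b and -1.51 to 0.48 for Mt3. In withdrawal against dDAVP it gave -0.80 to 4.64 for Mest, -0.0095 to 1.501 for Guca2a, -0.067 to 1.78 for Gpnmb, -2.20 to 0.11 for Spink13, -1.67 to 0.52 for Alox15b and -1.47 to 0.35 for Mt3, and in withdrawal against vehicle -0.16 to 2.12 for Gpnmb. The turns on leaving out arrays came in fits that changed the share of apart arrays in the compared groups. In some of these fits neither apart array was left. No cause of these turns, or of those under scaling, was tested.

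Same-numbered arrays did not deviate together. In dDAVP and vehicle they deviated in opposite directions (r = -0.62), and r was -0.11 in dDAVP and withdrawal and -0.002 in vehicle and withdrawal. The numbers were therefore not taken as pairs, and a replicate block gave 0 genes past the threshold in every comparison. A crossed block in dDAVP against vehicle, chosen after seeing the data and built on the same split of the arrays that chose the 10 genes, gave 43 genes (7 higher, 36 lower), 240 with medians subtracted (169 higher, 71 lower) and 0 under loess, and supports nothing here.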

Other observations

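Single genes of the cell type lists differed more than their lists, as a description of arrays chosen for their difference. The collecting duct list had a median difference of -0.05 log2, with 4 of 10 below, beside 12.7% of all genes. The urea transporter Slc14a2 was at 11.79 in vehicle replicate 1 and 11.86 in dDAVP replicate 2, against 12.52 and 12.30 in the withdrawal arrays, 12.47 in dDAVP replicate 1 and 12.55 in vehicle replicate 2. Of 6 smooth muscle genes 3 lay below and 1 above, beside 12.7% and 10.9% of all genes, with a median difference of -0.14 log2. The actin-binding protein Tagln differed by -0.98 log2 between the means of the 2 sets and Rgs5 by 0.43. Des and Cnn1 had overlapping sets. Among immune cell markers, the macrophage protein Cd68 differed by -0.89, while the T cell protein Cd3g differed by 0.89 with overlapping sets. The amino acid transporter Slc7a13 of the proximal tubule differed in the other direction, at 10.69 and 10.75 against 9.19 to 10.15, and so did the endothelial receptor Tek, at 11.04 and 11.09 against 10.25 to 10.65.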
